A study of Mus musculus with 36 samples.

Results

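The miR-17~92 and miR-106b~25 clusters are groups of miRNA hairpins that lie next to each other and are cut from a shared transcript, and 9 of their mature products, 1 arm of each hairpin, were followed in mouse prostate. The miR-17~92 cluster gave mmu-miR-17-5p, mmu-miR-18a-5p, mmu-miR-19a-3p, mmu-miR-20a-5p, mmu-miR-19b-3p and mmu-miR-92a-3p, and the miR-106b~25 cluster gave mmu-miR-106b-5p, mmu-miR-93-5p and mmu-miR-25-3p. These 9 of the 1963 miRNAs listed in each table were taken by name. Small RNA was sequenced from the ventral and lateral prostate lobes of male mice of a background that the labels write as C56NL/6N, in 12 groups of 3 libraries, 36 in all. WT mice carried the wild-type Elac2 gene, which encodes the ribonuclease that trims the 3′ ends of transfer RNAs. KO mice were homozygous for an Elac2 deletion made by Pb-Cre, a recombinase expressed from the probasin promoter of prostate epithelium, so that the other cells of the lobes kept the gene. A537T mice were homozygous in the whole body for a threonine in place of an alanine. Each line was sampled without the TRAMP transgene and with 1 copy of it (WT-TRAMP, KO-TRAMP and A537T-TRAMP), at 10 and 30 weeks of age. TRAMP places the SV40 T antigens under the probasin promoter.

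Both clusters are known targets of the E2F transcription factors, which drive the entry of cells into DNA synthesis. Large T antigen binds the retinoblastoma protein and frees E2F from it, and the miR-106b~25 hairpins lie inside Mcm7, a gene for a subunit of the replicative helicase and itself an E2F target. In mice the miR-17~92 cluster is known for promoting lymphoma and for its need in lung and B cell development, and products of both clusters repress the cell cycle inhibitor p21 or the death factor BIM.

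Levels are given as RPM, the reads of a miRNA divided by all miRNA reads of its library and multiplied by 1000000. Library 35, of A537T at 10 weeks, held 655455 reads and the other 35 held 4544257 to 21870210, so that 1 read was worth 1.53 RPM in library 35. The lobes were sequenced as bulk tissue, in which fewer cells of a type and less RNA per cell cannot be told apart. The 6 skeletal muscle miRNAs took 9.71% to 30.6% of the reads in WT at 10 weeks, and at the same age 3.72% to 13.7% in A537T and 0.734% to 6.49% in KO, and at most 3.09% elsewhere. Summed leukocyte markers (5 miRNAs) ranged from 236 to 462 RPM without and from 275 to 731 RPM with TRAMP at 10 weeks, and from 234 to 634 RPM and from 731 to 1696 RPM at 30 weeks. The 4 red cell markers summed to 322 to 1931 RPM without TRAMP and to 138 to 617 RPM with it, and the 5 stromal and smooth muscle markers to 72108 to 401839 RPM and 63617 to 343554 RPM. The 6 epithelial markers were detected in every group and summed to 38103 to 100021 RPM. No listed marker was at 0 in any of the 4 combinations of age and TRAMP, and the part of these other cell types in the results below was not tested. The columns carry library numbers but no group names, so each library's group was read from the tables that hold it. Libraries 1 to 18 were from TRAMP mice and libraries 19 to 36 from the others, so the numbering and the transgene cannot be told apart.

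The sequences show why 2 separate loci are described together. A miRNA finds its targets mostly by its seed, bases 2 to 8 counted from the 5′ end, and each seed of the miR-106b~25 cluster is also found in the miR-17~92 cluster. In the RefSeq mature sequences below (GRCm38.p6, 5′ to 3′) the seed is in capitals. The first 4 share the seed AAAGUGC.
mmu-miR-17-5p: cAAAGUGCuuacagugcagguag
mmu-miR-20a-5p: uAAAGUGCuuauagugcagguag
mmu-miR-106b-5p: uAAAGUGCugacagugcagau
mmu-miR-93-5p: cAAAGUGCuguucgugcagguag
mmu-miR-18a-5p: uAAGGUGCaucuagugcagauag
mmu-miR-19a-3p: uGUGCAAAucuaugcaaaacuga
mmu-miR-19b-3p: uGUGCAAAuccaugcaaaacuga
mmu-miR-92a-3p: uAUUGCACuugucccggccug
mmu-miR-25-3p: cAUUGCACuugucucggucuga
The seed of mmu-miR-18a-5p, AAGGUGC, was shared with no other member. The seed GUGCAAA was common to mmu-miR-19a-3p and mmu-miR-19b-3p, which differed by the single substitution U11C, written as the base of mmu-miR-19a-3p, its position from the 5′ end and the base of mmu-miR-19b-3p. The seed AUUGCAC was common to mmu-miR-92a-3p of the first cluster and mmu-miR-25-3p of the second. Compared position by position from the 5′ end over the shorter length, these differed at 3 positions, and their lengths were 21 and 22 bases. The other pairs of members with a shared seed differed at 2 to 5 positions counted in this way, where mmu-miR-106b-5p has 21 bases and its partners 23.

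On GRCm38 the miR-17~92 hairpins spanned 836 bases on the plus strand, chr14:115043671-115044506, all within the annotated exon of the long noncoding RNA Mir17hg (chr14:115042879-115046727). The miR-106b~25 hairpins spanned 498 bases on the minus strand, chr5:138165321-138165818, within Mcm7 (chr5:138164583-138172422). Mir106b was intronic in both Mcm7 transcripts that cover it, while Mir93 and Mir25 were intronic in 2 and exonic in 1 of 3 transcripts. The sequences of mmu-miR-19b-3p and mmu-miR-92a-3p are each also encoded on the X chromosome, in the related cluster that starts with Mir106a, and reads of the X-linked and autosomal copies cannot be told apart.

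At the level of single miRNAs, the 9 members differed widely in level. Averaged over all 36 libraries, mmu-miR-25-3p was the highest at 2084 RPM, followed by mmu-miR-93-5p at 868 RPM and mmu-miR-92a-3p at 817 RPM. The middle of the range held mmu-miR-20a-5p at 273 RPM, mmu-miR-17-5p at 201 RPM, mmu-miR-106b-5p at 144 RPM and mmu-miR-19b-3p at 71.3 RPM. The lowest were mmu-miR-19a-3p at 17.1 RPM and mmu-miR-18a-5p at 5.75 RPM. All 9 passed the filter used for testing, a mean of at least 5 RPM over all libraries that 365 miRNAs met, but mmu-miR-18a-5p did so only through the TRAMP libraries. Its mean was 2.91 RPM in the 18 libraries without TRAMP, none of which reached the filter, so that it had to differ between these sets, and its TRAMP effects are given as a description. In all, 20 of the 365 miRNAs had a mean under the filter in the libraries without TRAMP. In library 35 mmu-miR-18a-5p rested on 1 read, for which the exact 95% binomial interval of 0.0386 to 8.5 RPM covers counting error only. Products of 1 cluster were thus read at levels far apart in the same libraries.

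mmu-miR-25-3p, a known repressor of BIM, was about 4 to 5 times as high with TRAMP. Without TRAMP at 10 weeks its levels were 626, 618 and 741 RPM in WT, 757, 742 and 869.9 RPM in KO and 619.9, 731 and 576 RPM in A537T. With TRAMP at that age they were 3812, 3669.6 and 3278 RPM in WT-TRAMP, 3727, 3677 and 2952 RPM in KO-TRAMP and 3669.9, 2974 and 2634 RPM in A537T-TRAMP. Every TRAMP library was thus above every library without TRAMP, in all 3 lines. At 30 weeks the levels were 926, 617 and 699 RPM in WT, 713, 1034 and 735 RPM in KO and 872, 820.0 and 854 RPM in A537T. They were 3422, 4181 and 3815 RPM in WT-TRAMP, 3540.2, 2499.7 and 2874 RPM in KO-TRAMP and 2691, 4703 and 3363 RPM in A537T-TRAMP. The 18 libraries without TRAMP ranged from 576 to 1034 RPM and the 18 with TRAMP from 2499.7 to 4703 RPM, with no overlap. The TRAMP effect, the log2 fold change averaged over the 3 lines, was 2.27 ± 0.11 (SE) at 10 weeks (limma adjusted p = 8.04e-16) and 2.08 ± 0.11 at 30 weeks (limma adjusted p = 3.77e-15). By size of that effect mmu-miR-25-3p stood at rank 5 of the 365 miRNAs tested at 10 weeks and at rank 7 at 30 weeks.

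**Figure D1:**
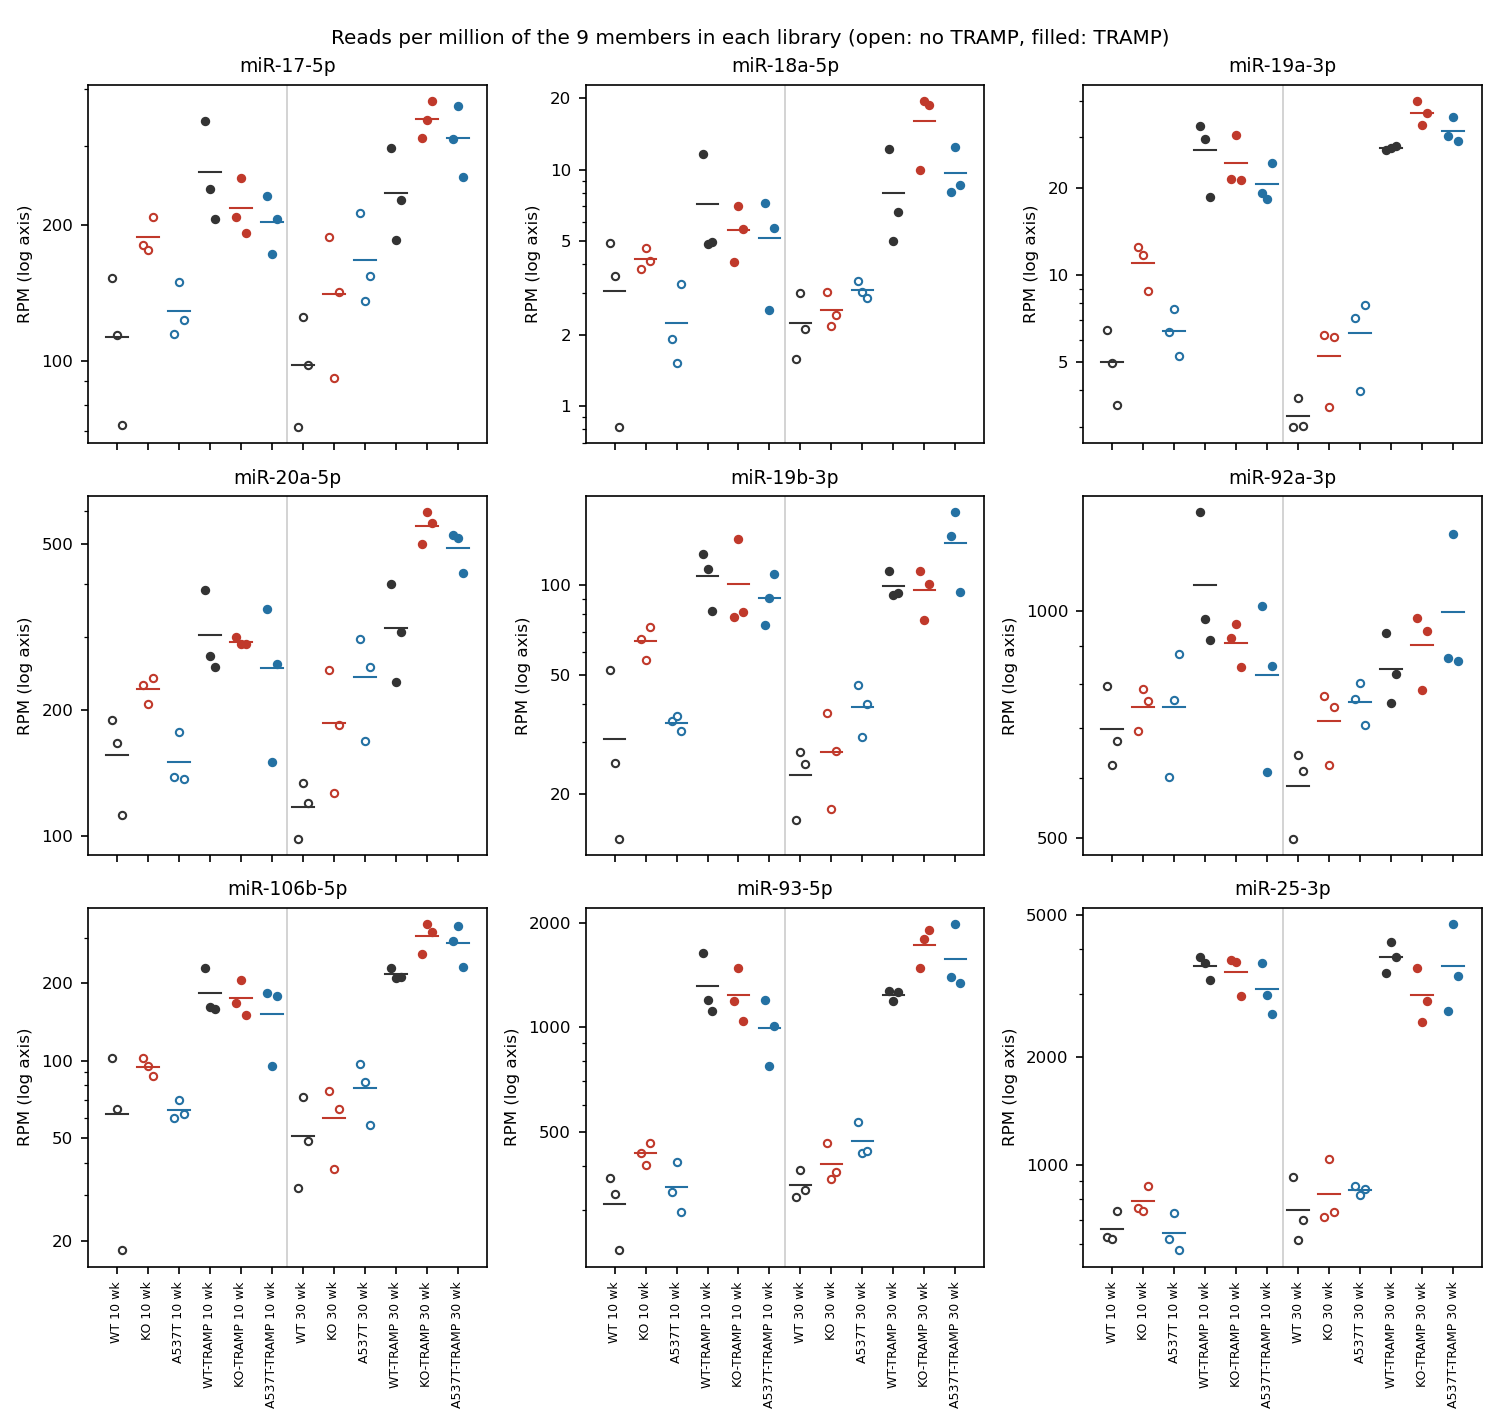
Level of each of the 9 miRNAs in all 36 libraries, in RPM on a log axis, by group; each point is 1 library. For mmu-miR-25-3p the TRAMP libraries sit between 2499.7 and 4703 RPM, above the 576 to 1034 RPM of the others, while for mmu-miR-92a-3p the 2 sets overlap.

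The other products of the Mcm7 hairpins were also higher with TRAMP. mmu-miR-93-5p, which shares its seed with the p21 repressor mmu-miR-106b-5p, ranged from 229 to 467 RPM (median 371) without and from 778 to 1636 RPM (median 1189) with TRAMP at 10 weeks. At 30 weeks it ranged from 325 to 534 RPM (median 389) and from 1192 to 1982 RPM (median 1398), so that no library overlapped at either age. Its TRAMP effect was 1.70 ± 0.11 at 10 weeks (limma adjusted p = 9.67e-13) and 1.88 ± 0.11 at 30 weeks (limma adjusted p = 8.07e-14). mmu-miR-106b-5p ranged from 18.4 to 102 RPM (median 70.2) without and from 95.5 to 229 RPM (median 167) with TRAMP at 10 weeks, when 8 of 9 TRAMP libraries lay above all 9 others. At 30 weeks it ranged from 32.1 to 96.7 RPM (median 64.7) and from 209 to 338 RPM (median 259) without overlap. The TRAMP effect on it was 1.29 ± 0.22 at 10 weeks (limma adjusted p = 1.52e-05) and 2.13 ± 0.22 at 30 weeks (limma adjusted p = 5.3e-09).

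Of the miR-17~92 products, the members with the miR-19 seed were the only ones whose TRAMP and other libraries did not overlap at either age. mmu-miR-19a-3p ranged from 3.57 to 12.5 RPM (median 6.47) without and from 18.3 to 32.8 RPM (median 21.4) with TRAMP at 10 weeks, and from 2.99 to 7.88 RPM (median 3.97) and from 27.1 to 40.0 RPM (median 30.2) at 30 weeks. With TRAMP it changed by 1.61 ± 0.14 at 10 weeks (limma adjusted p = 2.14e-10) and 2.51 ± 0.14 at 30 weeks (limma adjusted p = 1.63e-14), where it had rank 2 of 365 by size. mmu-miR-19b-3p ranged from 14.2 to 72.9 RPM (median 36.6) and from 73.9 to 143 RPM (median 90.4) at 10 weeks, and from 16.4 to 46.6 RPM (median 27.9) and from 76.6 to 176 RPM (median 101) at 30 weeks. Its TRAMP effect was 1.29 ± 0.19 at 10 weeks (limma adjusted p = 1.94e-06) and 1.89 ± 0.19 at 30 weeks (limma adjusted p = 3.11e-09). At 10 weeks the gap between its 2 sets of libraries was narrow, with the highest KO library at 72.9 RPM and the lowest A537T-TRAMP library at 73.9 RPM.

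The members of the cluster with the miR-17 seed overlapped. mmu-miR-17-5p, a repressor of p21 and of E2F1 itself, ranged from 72.1 to 208 RPM (median 149.5) without and from 173 to 340.2 RPM (median 209) with TRAMP at 10 weeks, and from 71.3 to 213 RPM (median 136) and from 185 to 378 RPM (median 311) at 30 weeks. The TRAMP effect was 0.70 ± 0.15 and 1.17 ± 0.15 at the 2 ages (limma adjusted p = 0.000298 and 3.47e-07). mmu-miR-20a-5p, also a repressor of E2F1, ranged from 112 to 238 RPM (median 177) without and from 151 to 387 RPM (median 288) with TRAMP at 10 weeks, and from 98.7 to 297 RPM (median 169) and from 234 to 594 RPM (median 498) at 30 weeks. With TRAMP it changed by 0.67 ± 0.16 and 1.35 ± 0.16 (limma adjusted p = 0.000513 and 3.56e-08). In both of these miRNAs 8 of 9 TRAMP libraries lay above all others at 30 weeks.

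mmu-miR-18a-5p was low throughout. It ranged from 0.818 to 4.88 RPM (median 3.55) without and from 2.55 to 11.7 RPM (median 5.63) with TRAMP at 10 weeks, and from 1.58 to 3.38 RPM (median 2.88) and from 4.99 to 19.6 RPM (median 9.95) at 30 weeks, when the sets did not overlap. Described with no test, its log2 TRAMP effect was 0.75 ± 0.22 at 10 weeks and 1.66 ± 0.22 at 30 weeks, on the log2(RPM + 1) scale, where changes of miRNAs at low levels come out too small.

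mmu-miR-92a-3p, a product known from endothelium, stood out from its own cluster. Its reads cannot be told apart from those of its X-linked copy. The other arm of its miR-17~92 hairpin was under the filter but mostly higher with TRAMP, as given below. mmu-miR-92a-3p made up 42.4% to 76.8% of the summed miR-17~92 RPM in single libraries and had the smallest mean TRAMP effect of the 9 at both ages. It ranged from 601 to 877 RPM (median 759) without and from 611 to 1354 RPM (median 922) with TRAMP at 10 weeks, and from 498 to 803 RPM (median 707) and from 756 to 1266 RPM (median 867) at 30 weeks. The sets overlapped at both ages, and the TRAMP effect was 0.34 ± 0.11 at 10 weeks and 0.41 ± 0.11 at 30 weeks (limma adjusted p = 0.00652 and 0.00242). With the skeletal muscle miRNAs left out of the library totals, the 10-week difference did not pass the test. The 2 endothelial markers summed to 12421 to 18603 RPM without and to 4932 to 11063 RPM with TRAMP at 10 weeks, and to 5850 to 13543 RPM and 8104 to 9969 RPM at 30 weeks; their part in the levels of mmu-miR-92a-3p was not tested.

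Counted without mmu-miR-18a-5p, all 8 other members were called higher and none lower in the mean effect at both ages, where 28.8% of the 365 miRNAs were called higher at 10 weeks and 28.5% at 30 weeks. In WT against WT-TRAMP all 8 were called higher at 10 weeks (background 23%) and at 30 weeks (background 17.3%). WT at 10 weeks was the group rich in skeletal muscle miRNAs, and with these left out of the totals the 10-week count over all 9 members was 7 in place of 9, with 15.9% of all miRNAs called higher. In KO against KO-TRAMP at 10 weeks 3 members were called, mmu-miR-19a-3p, mmu-miR-93-5p and mmu-miR-25-3p, against a background of 15.1%. At 30 weeks 7 of the 8 were called in that line (background 27.9%), all but mmu-miR-92a-3p. In A537T against A537T-TRAMP 5 were called at 10 weeks (background 14.5%), mmu-miR-19a-3p, mmu-miR-19b-3p and the 3 products of the miR-106b~25 cluster, and 7 of the 8 at 30 weeks (background 11.2%), again all but mmu-miR-92a-3p. Under TMM the 10-week counts over all 9 members were 7 (KO) and 8 (A537T), and the share of all miRNAs called higher was 25.8% and 23.6%. Whether the lines differed in their TRAMP effect was not tested.

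The median effect of these 8 members was 1.29 at 10 weeks and 1.88 at 30 weeks, against a median over all tested miRNAs of -0.25 and 0.05. By cluster it was 0.70 and 1.35 for the 5 miR-17~92 members and 1.70 and 2.08 for the miR-106b~25 members. In each line and at each age these members lay above the median of all miRNAs, whose value ran from -0.37 in KO at 10 weeks to 0.27 in KO at 30 weeks. Of all tested miRNAs, 11% had every TRAMP library above every other library at 10 weeks and 9.32% at 30 weeks. With the ages pooled, 4.66% had all 18 TRAMP libraries above all 18 others, a stricter rule than no overlap within each age. Of the 8 members, 4 had no overlap of this kind at 10 weeks and 5 at 30 weeks. Those without overlap in the pooled ages were mmu-miR-19a-3p, mmu-miR-19b-3p, mmu-miR-93-5p and mmu-miR-25-3p, 4 of the 17 miRNAs of that kind.

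**Figure D2:**
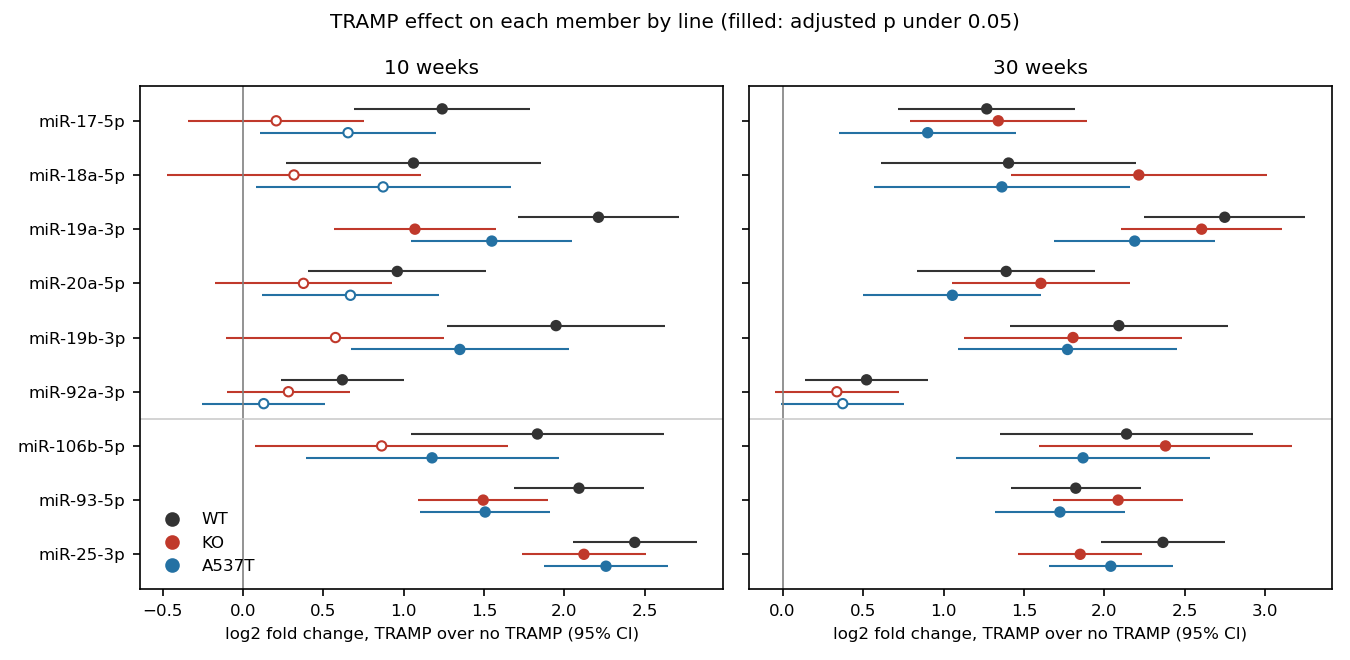
TRAMP effect of each member (log2 fold change on the log2(RPM + 1) scale, with 95% intervals) in WT, KO and A537T at 10 and 30 weeks. mmu-miR-25-3p lies between 1.85 and 2.44 in all 6 comparisons, and mmu-miR-92a-3p between 0.13 and 0.62.

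Along the hairpins of miR-17~92 the effect did not follow the order of the hairpins on the transcript. From the 5′ end it was 0.70 for mmu-miR-17-5p, 0.75 for mmu-miR-18a-5p, 1.61 for mmu-miR-19a-3p, 0.67 for mmu-miR-20a-5p, 1.29 for mmu-miR-19b-3p and 0.34 for mmu-miR-92a-3p at 10 weeks. Both miR-19 products thus had larger values than the neighbours on either side, and the same was seen at 30 weeks, with 1.17, 1.66, 2.51, 1.35, 1.89 and 0.41. In the Mcm7 cluster the order from the 5′ end was 1.29 for mmu-miR-106b-5p, 1.70 for mmu-miR-93-5p and 2.27 for mmu-miR-25-3p at 10 weeks, and 2.13, 1.88 and 2.08 at 30 weeks. Differences in effect between members were not tested.

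**Figure D3:**
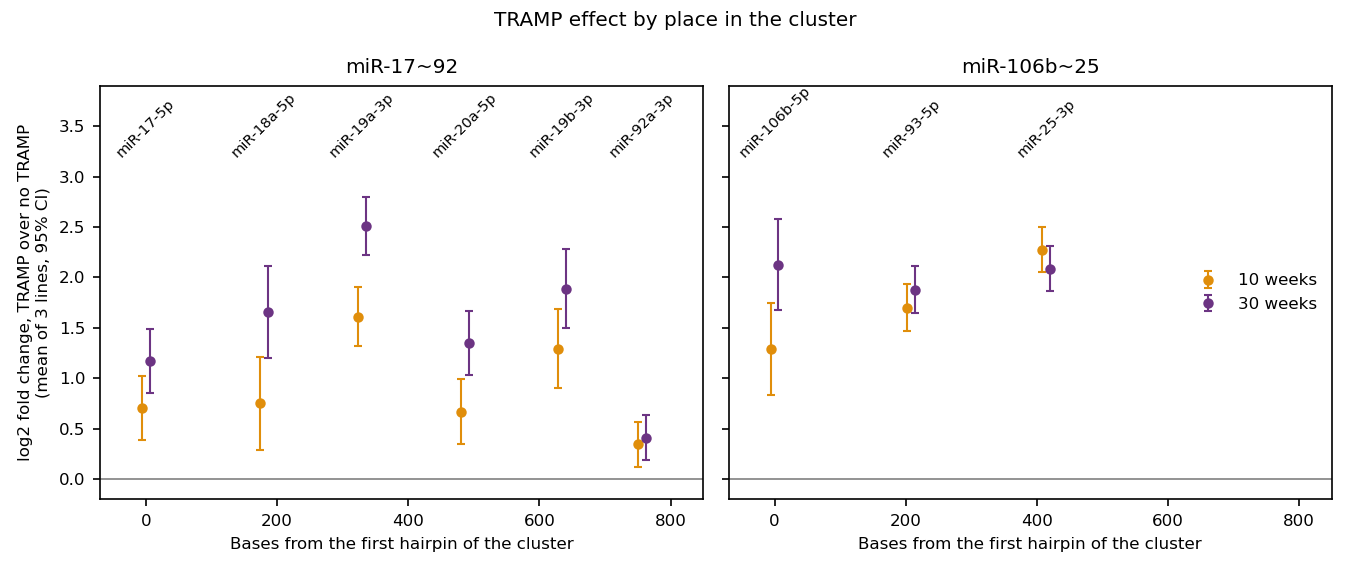
TRAMP effect (log2 fold change averaged over lines, with 95% intervals) of each member against the distance in bases of its hairpin from the first hairpin of its cluster, at 10 and 30 weeks. The miR-19 products rise above their neighbours in the 836 bases of miR-17~92, and the 3 products of miR-106b~25 lie between 1.29 and 2.27.

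The summed levels show how far the balance between the clusters moved. The miR-17~92 members summed to 689 to 1331 RPM without and 1046 to 2373 RPM with TRAMP, and the ranges overlapped. The miR-106b~25 members summed to 932 to 1502 RPM and 3824 to 7019 RPM, and the ranges did not overlap. The ratio of the second sum to the first ran from 0.791 to 1.86 without and from 2.32 to 4.29 with TRAMP. Together the 9 miRNAs took 0.186% to 0.283% of all miRNA reads without and 0.489% to 0.939% with TRAMP.

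Of the 2 products with the seed AUUGCAC, mmu-miR-25-3p had a median of 738 RPM without and 3481 RPM with TRAMP over both ages. The medians of mmu-miR-92a-3p were 727 and 919 RPM. In libraries without TRAMP mmu-miR-25-3p and mmu-miR-92a-3p were at like levels, with a ratio of 0.657 to 1.15 at 10 weeks and 0.923 to 1.86 at 30 weeks. With TRAMP the ratio was 2.82 to 4.87 at 10 weeks and 3.05 to 5.53 at 30 weeks. For the seed AAAGUGC, the ratio of mmu-miR-93-5p to mmu-miR-20a-5p was 1.90 to 2.43 without and 3.44 to 5.16 with TRAMP at 10 weeks. At 30 weeks the 2 ranges of that ratio overlapped, at 1.75 to 3.30 and 2.67 to 5.09. The ratio of mmu-miR-106b-5p to mmu-miR-17-5p was 0.255 to 0.669 and 0.552 to 0.863 at 10 weeks and 0.364 to 0.607 and 0.773 to 1.13 at 30 weeks. A ratio within a library does not depend on the library total.

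**Figure D4:**
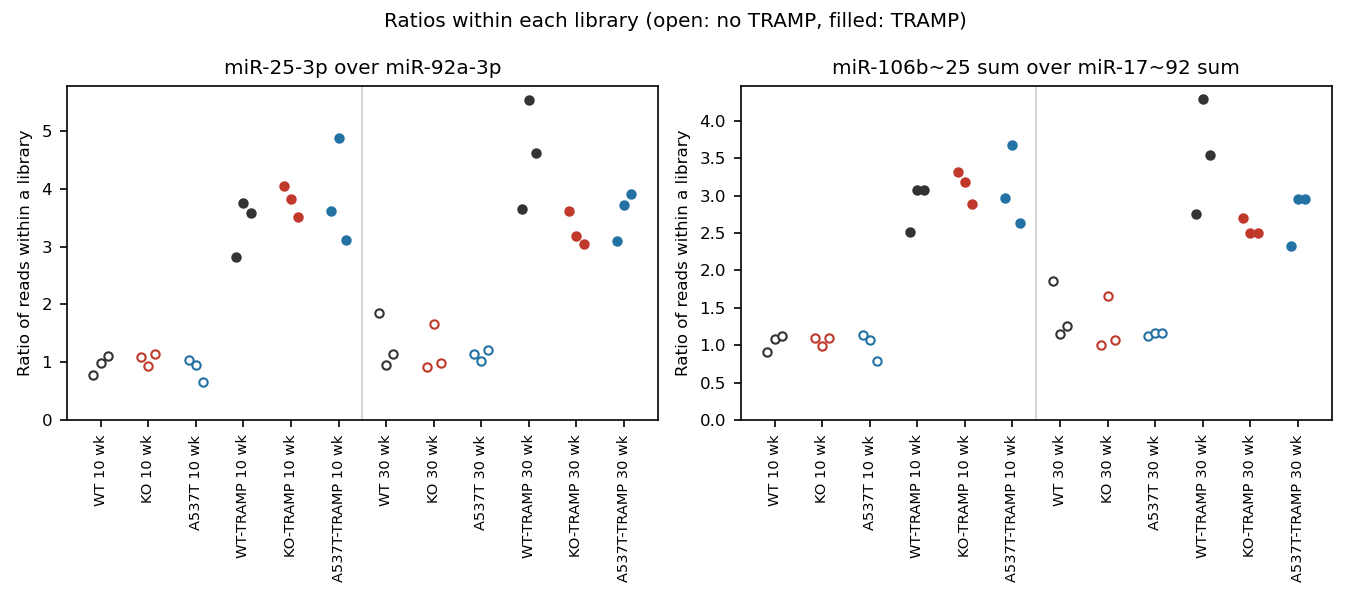
Ratio of mmu-miR-25-3p to mmu-miR-92a-3p and of the summed miR-106b~25 to the summed miR-17~92 members in each of 36 libraries, by group. The first ratio is at most 1.86 without and at least 2.82 with TRAMP, and the second at most 1.86 and at least 2.32.

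Ordered by mean level over the 12 groups, few neighbouring groups were apart. WT at 30 weeks was the lowest group for 7 of the 9 members, the exceptions being mmu-miR-93-5p (WT at 10 weeks) and mmu-miR-25-3p (A537T at 10 weeks). KO-TRAMP at 30 weeks was the highest for 6, namely mmu-miR-17-5p, mmu-miR-18a-5p, mmu-miR-19a-3p, mmu-miR-20a-5p, mmu-miR-106b-5p and mmu-miR-93-5p. Of the 11 pairs of neighbours in each order, none was free of overlap for mmu-miR-17-5p and mmu-miR-92a-3p, 1 for mmu-miR-18a-5p, mmu-miR-106b-5p, mmu-miR-93-5p and mmu-miR-25-3p, 2 for mmu-miR-20a-5p and mmu-miR-19b-3p and 3 for mmu-miR-19a-3p. For mmu-miR-93-5p and mmu-miR-25-3p that pair was the step from the highest group without to the lowest with TRAMP. The spread within groups, as the SD of log2(RPM + 1) pooled over the 12 groups, was 0.22 for mmu-miR-25-3p and mmu-miR-92a-3p, 0.23 for mmu-miR-93-5p, 0.48 for mmu-miR-18a-5p and 0.49 for mmu-miR-106b-5p.

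Age by itself moved few members. From 10 to 30 weeks no member was called in WT, A537T or WT-TRAMP, where 12.3%, 17.5% and 8.49% of all miRNAs were called in either direction. By limma no member in WT or WT-TRAMP and 3 in A537T had an unadjusted p under 0.05. For all 365 miRNAs that number was 101 in WT, 87 in WT-TRAMP and 113 in A537T. edgeR and DESeq2 each called 2 members higher in A537T and 0 in WT and WT-TRAMP. Of all miRNAs, edgeR called 12.1% and DESeq2 10.7% higher in A537T, 3.3% and 6% in WT and 6% and 7.4% in WT-TRAMP. In KO both miR-19 products were lower at 30 weeks, against a background of 16.2%. mmu-miR-19a-3p was at 12.5, 11.8 and 8.86 RPM at 10 weeks and at 6.22, 3.5 and 6.12 RPM at 30 weeks in KO, a change of -0.96 ± 0.24 (limma adjusted p = 0.00709). mmu-miR-19b-3p was at 66.4, 56.5 and 72.9 RPM and at 37.4, 17.9 and 27.9 RPM, a change of -1.26 ± 0.33 (limma adjusted p = 0.00928). The groups overlapped for neither, and the median of all miRNAs in KO moved by -0.27. Without library 23, a KO library of 30 weeks, 0 members were called.

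With TRAMP the members called with age were higher at 30 weeks. In KO-TRAMP, where 21.1% of all miRNAs were called, mmu-miR-20a-5p was at 298, 289 and 288 RPM at 10 weeks and at 498, 594 and 561 RPM at 30 weeks, a change of 0.91 ± 0.27 (limma adjusted p = 0.0194). mmu-miR-18a-5p was at 4.08, 7.04 and 5.63 RPM and at 9.95, 19.6 and 18.7 RPM in the same groups, a change of 1.34 ± 0.39. It passed the filter only through the TRAMP libraries, so that this change is a description, although the counts below include it. In A537T-TRAMP, where 7.4% were called, mmu-miR-20a-5p was at 349, 151 and 258 RPM and at 523, 516 and 425 RPM, a change of 1.02 ± 0.27 (limma adjusted p = 0.0197). mmu-miR-93-5p was at 1199.6, 778 and 1011 RPM and at 1398, 1982 and 1346 RPM in those groups, a change of 0.66 ± 0.20 (limma adjusted p = 0.0384). No older library overlapped with a younger one in these 4 comparisons. They depend on single libraries and on the scaling: the KO-TRAMP count was 0 without library 17 or 18 and 1 without library 7, and the A537T-TRAMP count 0 without library 5, 13 or 14 and 1 without library 6. Under TMM the counts were 1 and 0, where 9.6% and 3.3% of all miRNAs were called higher. The leukocyte markers summed to 731 to 1696 RPM in the older and 275 to 731 RPM in the younger TRAMP libraries. Libraries 17 and 18 also stood apart in the neuroendocrine markers, at 18706 and 14950 RPM against 5632 RPM in library 16, and in the stromal and smooth muscle markers, at 343554 and 247277 RPM against 63617 RPM. The part of these markers was not tested.

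The difference between the TRAMP effects at 30 and 10 weeks, averaged over lines, was tested directly. Counted without mmu-miR-18a-5p, it was called above 0 for 3 of the 8 other members by limma. The background was 29% of all miRNAs and the median of all was 0.23. These were mmu-miR-19a-3p (0.90 ± 0.20, limma adjusted p = 0.0011), mmu-miR-20a-5p (0.68 ± 0.22, limma adjusted p = 0.0171) and mmu-miR-106b-5p (0.84 ± 0.31, limma adjusted p = 0.0354). The difference of mmu-miR-18a-5p was 0.91 ± 0.32. For mmu-miR-25-3p the difference was -0.19 ± 0.15 and for mmu-miR-93-5p 0.18 ± 0.16 (limma adjusted p = 0.331 and 0.385). Under TMM the differences were smaller, at 0.69, 0.46 and 0.62 for the 3 called members in the same order and 0.72 for mmu-miR-18a-5p. Those of mmu-miR-20a-5p and mmu-miR-106b-5p did not pass under TMM (limma adjusted p = 0.0761 and 0.0519). For mmu-miR-106b-5p 16 of 47 fits, including those without 1 library, did not pass. For mmu-miR-18a-5p, in the age comparison of KO-TRAMP as well, the group that carried it past the filter was also among those compared. Both of its values are therefore a description.

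The calls between the Elac2 lines depended on the test and on single libraries. In KO against WT at 10 weeks, where 4.93% of all miRNAs were called in either direction, both miR-19 products were higher. mmu-miR-19a-3p was at 6.47, 4.97 and 3.57 RPM in WT and at 12.5, 11.8 and 8.86 RPM in KO, without overlap, a change of 1.02 ± 0.24 (limma adjusted p = 0.00851). mmu-miR-19b-3p was at 52.1, 25.4 and 14.2 RPM in WT and at 66.4, 56.5 and 72.9 RPM in KO, also without overlap, a change of 1.25 ± 0.33 (limma adjusted p = 0.0191). The median of all miRNAs moved by 0.22. The WT libraries 28, 29 and 30 were those with 9.71% to 30.6% of skeletal muscle miRNAs. With these miRNAs left out of the totals 2 members were called, where 8.2% of all miRNAs were called in either direction. That step changed the totals only, not the mix of tissue. The stromal and smooth muscle markers summed to 303977, 155351 and 72108 RPM in these WT libraries and to 305258 to 361400 RPM in KO, and the neuroendocrine markers to 7384, 4982 and 2789 RPM and to 7813 to 7970 RPM. Neither overlapped between the groups, both ran in the same order as mmu-miR-19b-3p in WT, and their part was not tested. The count was 5 without library 28, 1 without library 29 or 33, and 0 without library 30 or 31, so that single libraries of both groups decided it.

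In the other 7 comparisons of a mutant with its control no member was called by limma. The share of all miRNAs called was 0.274% for A537T at 10 weeks, 1.1% for KO at 30 weeks, 5.48% for KO-TRAMP at 30 weeks and 0% for the other 4. Unadjusted p-values under 0.05 by limma were found for 5 members in A537T at 30 weeks, 4 in KO-TRAMP at 30 weeks, 2 in KO at 30 weeks, 2 in A537T-TRAMP at 10 weeks and 1 in A537T-TRAMP at 30 weeks, and for 0 in the others. Of all 365 miRNAs, 38, 80, 62, 29 and 26 had such a p-value in the same order. In the others it was 23 in A537T and 18 in KO-TRAMP, both at 10 weeks. All 9 fold changes against WT were above 0 in KO and in A537T at 30 weeks, from 0.15 to 0.62 and from 0.20 to 0.99. The medians of all miRNAs were -0.196 and -0.105. Both lines were set against the same 3 WT libraries, so these 2 results are not independent. edgeR and DESeq2 each called 5 members higher in KO, where edgeR called 3.8% and DESeq2 4.9% of all miRNAs higher, and each called 5 in A537T, where they called 5.8% and 6% of all higher. DESeq2 called 1 higher in KO-TRAMP at 30 weeks, where it called 10.1% of all miRNAs higher. For mmu-miR-20a-5p, WT at 30 weeks had 98.7, 134 and 119.9 RPM and A537T had 297, 169 and 253 RPM, a difference of 0.99 ± 0.27 (limma adjusted p = 0.136). The 3 A537T libraries lay above the 3 WT libraries, and the call depended on the test and the scaling.

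For each hairpin the other arm gave a second reading from the same precursor. For the Mir106b hairpin the other arm had more reads than the member in each of the 4 combinations of age and TRAMP. In the RefSeq hairpin of 82 bases (5′ to 3′) the mature 5p and 3p arms are in capitals.
Mir106b: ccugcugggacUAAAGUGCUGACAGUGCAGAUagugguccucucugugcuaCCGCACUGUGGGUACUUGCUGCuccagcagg
mmu-miR-106b-3p gave 43.5% to 83.3% of the reads of both arms at 10 weeks without TRAMP, and 57.8% to 72.4% with TRAMP. At 30 weeks it gave 49.0% to 75.9% and 51.4% to 64.0%. Its level was 72.9 to 92.3 RPM (median 79.5) without and 244 to 399 RPM (median 336) with TRAMP at 10 weeks, and 79.9 to 120.3 RPM (median 92.8) and 307 to 517 RPM (median 372) at 30 weeks, without overlap. The effect of TRAMP on it was 1.98 at 10 weeks and 2.03 at 30 weeks, against 1.29 and 2.13 for mmu-miR-106b-5p. The share of 83.3% was that of library 30, of WT at 10 weeks, in which mmu-miR-106b-5p was at 18.4 RPM and mmu-miR-106b-3p at 91.5 RPM, next to 80.2 and 79.5 RPM in the other WT libraries of that age. Library 30 was also the one with 30.6% skeletal muscle miRNAs, and whether the 2 facts are linked was not tested.

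mmu-miR-18a-3p gave 11.1% to 80% of the reads of its hairpin in single libraries, where both arms were low. mmu-miR-25-5p, with medians of 2.97 RPM without and 18.6 RPM with TRAMP at 10 weeks and of 3.66 and 16.8 RPM at 30 weeks, made up at most 0.768% of the reads of its hairpin. It passed the filter only through the TRAMP libraries, and its TRAMP effects of 2.32 and 1.90 at the 2 ages are a description. mmu-miR-93-3p had effects of 1.35 and 1.07 and mmu-miR-17-3p of 0.75 and 0.93, all 4 called higher by limma. mmu-miR-19a-5p had no read in any of the 36 libraries, and the other arms of mmu-miR-18a-5p, mmu-miR-20a-5p, mmu-miR-19b-3p and mmu-miR-92a-3p were under the filter of 5 RPM.

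The X-linked Mir106a cluster, a copy of miR-17~92, went the other way at 30 weeks. Its hairpins lie on the minus strand at chrX:52741693-52742567 (GRCm38), and 3 of its products passed the filter. Their RefSeq sequences, with the seed in capitals, show how near they are to the members.
mmu-miR-106a-5p: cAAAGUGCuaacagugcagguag
mmu-miR-20b-5p: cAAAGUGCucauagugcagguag
mmu-miR-363-3p: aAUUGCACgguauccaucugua
mmu-miR-106a-5p differs from mmu-miR-17-5p by the single substitution U10A, written as the base of mmu-miR-17-5p first. mmu-miR-20b-5p ranged from 9.46 to 25.4 RPM without and from 5.58 to 29.5 RPM with TRAMP at 10 weeks, and from 20.5 to 64.8 RPM (median 46.6) and from 9.57 to 22.5 RPM (median 16.1) at 30 weeks. At 30 weeks 7 of 9 TRAMP libraries lay below all others. Its TRAMP effect was 0.03 ± 0.21 at 10 weeks and -1.21 ± 0.21 at 30 weeks (limma adjusted p = 0.89 and 2.81e-05).

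mmu-miR-363-3p behaved alike, with 18.9 to 94.3 RPM without and 7.87 to 29.7 RPM with TRAMP at 30 weeks and effects of 0.27 and -1.26 (limma adjusted p = 0.346 and 0.000159). mmu-miR-106a-5p, with 6.63 to 16.4 RPM and 5.47 to 9.74 RPM at 30 weeks, had effects of 0.36 and -0.68 (limma adjusted p = 0.0484 and 0.000919). All 3 were called lower at 30 weeks under each of 6 scalings and tests, and the 10-week call of mmu-miR-106a-5p was made under 5 of the 6. The difference between the ages was -1.24 for mmu-miR-20b-5p, -1.53 for mmu-miR-363-3p and -1.03 for mmu-miR-106a-5p (limma adjusted p = 0.00249, 0.00206 and 0.00106). Without TRAMP all 3 were higher at 30 than at 10 weeks in WT, by 1.23, 1.40 and 0.95 in the same order, and in KO, by 1.35, 1.37 and 0.88. In A537T the changes were 0.66, 0.74 and 1.03, and the last was called. No age change with TRAMP was called for any of them.

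**Figure D5:**
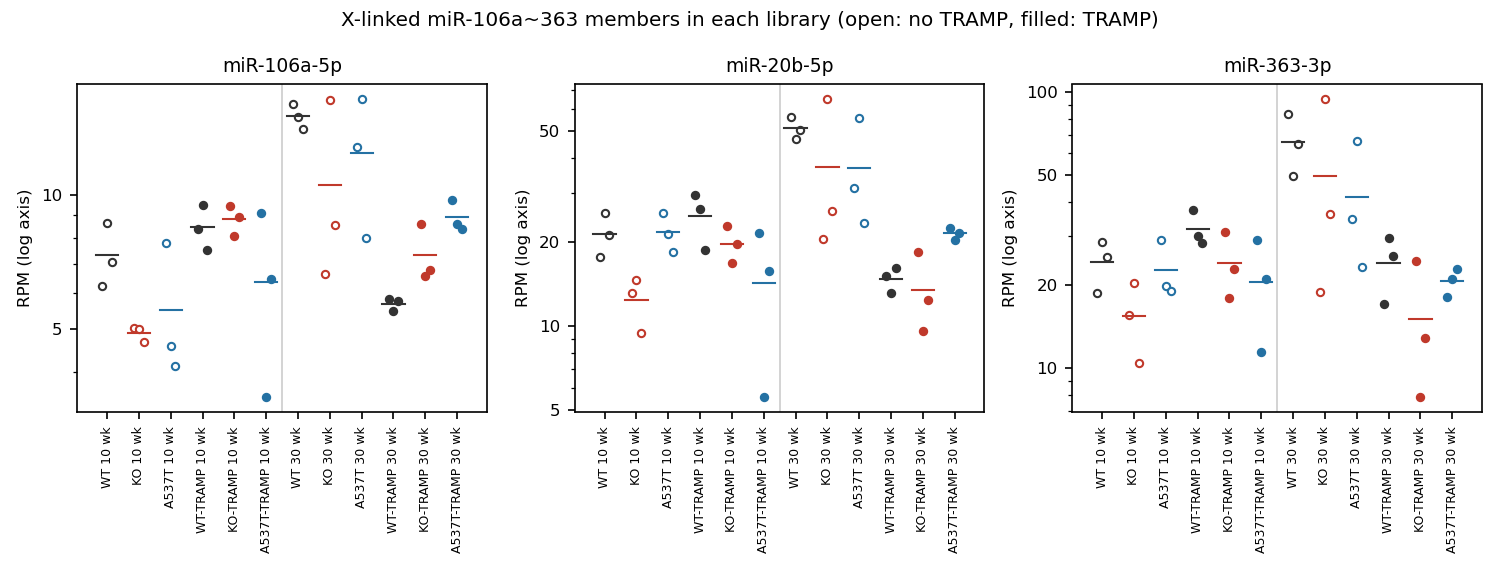
Levels in RPM (log axis) of mmu-miR-20b-5p, mmu-miR-363-3p and mmu-miR-106a-5p of the X-linked cluster in each of 36 libraries, by group. At 30 weeks mmu-miR-20b-5p lies at 20.5 to 64.8 RPM without and 9.57 to 22.5 RPM with TRAMP, the opposite order to the 9 members.

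Summed over every listed miRNA with the same seed, the members supplied nearly all reads. Seeds were read from RefSeq for 1670 of the 1963 miRNAs. The seed AAAGUGC was found in 7 miRNAs and summed to 460 to 1184 RPM without and 1206 to 3229 RPM with TRAMP, of which the 4 members gave 88.0% to 99.5% in single libraries. mmu-miR-93-5p alone supplied 44.2% to 54.3% of that family without TRAMP and 54.7% to 65.8% with it. The seed AUUGCAC was found in 6 miRNAs and summed to 1277 to 1774 RPM without and 3441 to 6070 RPM with TRAMP, and the 2 members gave 93.0% to 98.4% of it. The seed GUGCAAA was found in the 2 miR-19 members only and summed to 17.8 to 81.7 RPM and 93.2 to 211 RPM.

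Of the other miRNAs with the seed AUUGCAC, mmu-miR-32-5p, encoded on chromosome 4, had 10.3 to 28.4 RPM without and 39.6 to 129 RPM with TRAMP, with no overlap at either age and TRAMP effects of 1.48 and 2.01. mmu-miR-92b-3p was not called at either age, and mmu-miR-367-3p had no read in any library. Other miRNAs from loci known as E2F targets were taken from a list made with earlier results of these data known. mmu-miR-15b-5p had 28.4 to 75.9 RPM without and 128 to 345 RPM with TRAMP and effects of 2.48 and 2.34. Its neighbour mmu-miR-16-2-3p had effects of 1.14 and 1.54, and mmu-miR-449a-5p of 1.88 and 2.69, but both passed the filter only through the TRAMP libraries, with means of 2.71 and 1.85 RPM without TRAMP, so that these values are a description. mmu-miR-15b-5p was called higher at both ages.

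The miRNAs whose pattern over the 12 group means was most like that of each cluster were found by Pearson's r among 182 others with a mean of at least 50 RPM. For the miR-17~92 members they were mmu-miR-16-5p (r = 0.97), mmu-miR-872-5p (r = 0.96) and mmu-miR-101b-3p (r = 0.96). For the miR-106b~25 members they were mmu-miR-872-5p (r = 0.98), mmu-miR-497a-5p (r = 0.96) and the merged entry mmu-let7ac-1_2-3p (r = 0.96). The 12 means share the same libraries and depths, and these values are a description of them.

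The promoter of the host gene is shown because both it and the cluster are known E2F targets. Searched on both strands were the letters TTTCCCGC, TTTCGCGC, TTTGCCGC and TTTGGCGC, a core form of the E2F site, and 2.26% of 32851 RefSeq promoters of 300 bases (250 before and 50 after the start) held at least 1 match. The first of the 2 Mcm7 promoters, chr5:138171834-138172133 on the minus strand (GRCm38.p6), held 2 matches, in capitals. The first match, GCGGGAAA, begins 165 bases upstream of the start and the other, TTTCGCGC, 17 bases downstream.
Mcm7: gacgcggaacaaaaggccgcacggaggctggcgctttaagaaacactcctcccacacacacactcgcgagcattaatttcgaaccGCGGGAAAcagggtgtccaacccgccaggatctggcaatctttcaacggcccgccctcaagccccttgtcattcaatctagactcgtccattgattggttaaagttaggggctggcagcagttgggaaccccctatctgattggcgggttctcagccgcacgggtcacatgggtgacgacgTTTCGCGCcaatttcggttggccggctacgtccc
The other Mcm7 promoter, at chr5:138171217-138171516, and the RefSeq promoters of Mir17hg and of Kis2, the transcript at the X-linked cluster, held no match. The Mir17hg entry begins inside the cluster, at chr14:115044140-115044439, and so does not cover the start of the longer annotated transcript. A match is a run of letters and not a measured binding site.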

How the data were processed

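Small RNA from ventral and lateral prostate lobes was sequenced by the authors in 36 libraries. Per the labels and the study's methods, read pairs were joined in BBMerge, miRNAs were quantified in mirDeep2 against GRCm38 and miRBase with reads that map to several miRNAs weighted, identical entries were summed, and counts were normalised in DESeq2. The authors deposited 8 tables of these normalised counts, a signal of counts divided by a size factor, each with 6 libraries. Further tables hold the authors' shrunken log2 fold changes and s-values and were not used. Whole reads were recovered for 100% of the values (tolerance 0.01 of a read). The groups of libraries were read from the names of the tables that hold each column: a column found in both the KO and the "Mut" table was read as a control that the 2 share, and "Mut" as A537T. All columns were matched to a group. The study describes 3 mice in each group, and each library was taken as 1 mouse, although the labels do not tie libraries to animals; the p-values measure the spread between libraries.

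Reads were divided by the library total to give RPM. log2(RPM + 1) was fitted in limma 3.58.1 (R 4.3.3) with 12 group means over all 36 libraries and a variance trend, for 365 miRNAs with a mean of at least 5 RPM. p-values were Benjamini-Hochberg adjusted over these 365 within each comparison, with a threshold of 0.05. Errors of fold changes are standard errors. Alternatives were edgeR 4.0.16 and DESeq2 1.42.0 on the recovered reads, other scalings, filters and pseudocounts, and leaving out each library. The fits were tested on simulated data. The members, the marker lists and the lists of other arms, X-linked copies, shared seeds and E2F-linked miRNAs were chosen with earlier results of these data known. All 9 members were named, and the miRNAs most like each cluster were the 3 with the highest Pearson's r over group means. Sequences and promoters came from RefSeq tables of GRCm38.p6, and hairpin annotation from the GENCODE annotation of GRCm38. The leukocyte, red cell, skeletal muscle, epithelial, stromal and smooth muscle, endothelial and neuroendocrine marker lists were summed per library; the 4 neuroendocrine markers summed to 2789 to 8089 RPM outside KO-TRAMP at 30 weeks, where they reached 18706 RPM.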

Additional observations from a re-analysis of the deposited data

Results flagged for a closer look

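For 3 of the 8 members other than mmu-miR-18a-5p the TRAMP effect differed between the ages by a test of the difference itself. This was the effect at 30 weeks minus that at 10 weeks, averaged over WT, KO and A537T. Of all 365 miRNAs, 29% were called above 0 by the same test. The difference in log2 fold change was 0.90 for mmu-miR-19a-3p, 0.68 for mmu-miR-20a-5p and 0.84 for mmu-miR-106b-5p (limma adjusted p = 0.0011, 0.0171 and 0.0354). For mmu-miR-18a-5p it was 0.91, given as a description. The median over all 365 miRNAs was 0.23. Each effect was above 0 at both ages and larger at 30 weeks. Under no alternative scaling or test did the difference change sign, and for mmu-miR-20a-5p it did not pass under TMM, DESeq2 size factors, edgeR or DESeq2 (adjusted p = 0.0761, 0.074, 0.112 and 0.113). For mmu-miR-106b-5p it did not pass under TMM or without a filter (adjusted p = 0.0519 and 0.089). With the fits that left out 1 library, 16 of its 47 fits did not pass, against 4 of 47 for mmu-miR-20a-5p and 0 of 46 for mmu-miR-19a-3p. For mmu-miR-18a-5p, which passed the filter only through the TRAMP libraries, it did not pass without a filter (adjusted p = 0.0588).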

How the results depend on the processing

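No paired analysis was possible because the columns carry no replicate numbers. Under the alternatives run, no fold change that passed the test changed sign, and leaving out single libraries kept 718 such results past the threshold and moved 50 to the other side. Library 35 limits mmu-miR-18a-5p, where 1 read is 1.53 RPM. The cause of the changes below, which count all 9 members, was not tested except where stated.

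The count of members called higher with TRAMP in KO at 10 weeks was 3 (15.1% of all tested miRNAs called higher). It was 7 under TMM (25.8%), DESeq2 size factors (26%) and edgeR (25.8%) and 8 under DESeq2 (28.5%). In A537T at 10 weeks it was 5 (14.5%), and 8 under TMM (23.6%), size factors (19.2%), edgeR (23.6%) and DESeq2 (20.5%). Shares in brackets below are also of all tested miRNAs called higher unless stated. In WT at 10 weeks the 9 (23%) became 7 with muscle miRNAs left out of the totals (15.9%) or with only the 6 libraries compared (17.3%). With age, 2 members were called lower in WT with muscle miRNAs left out of the totals (0 otherwise), and 1 lower in KO (2 otherwise) with a filter of 50 RPM. In these 2 settings 14.5% and 9.9% of all miRNAs were called in either direction, against 12.3% and 16.2% in the main fit. In A537T 2 were higher under TMM (13.4%), size factors (11.2%), edgeR (12.1%) and DESeq2 (10.7%), against 0 otherwise (6.8% in the main fit). In KO-TRAMP the count of 2 (16.4%) became 1 under TMM (9.6%), size factors (11.2%), edgeR (13.4%) and a filter of 50 RPM (8.4%). It became 0 with only the 6 libraries compared (0%). In A537T-TRAMP the 2 (6.8%) became 0 under TMM (3.3%), edgeR (3%), DESeq2 (4.4%), no filter (0.9%) and only the 6 libraries (0.5%), and 1 under size factors (4.9%). The 4 members with a larger TRAMP effect at 30 weeks (29%) became 2 under TMM (20.8%) and without a filter (8%). They became 3 under size factors (22.5%), edgeR (20.5%) and DESeq2 (23.3%), and 6 with muscle miRNAs left out (37.8%). With a filter of 50 RPM (25.1%) 2 were called because mmu-miR-18a-5p and mmu-miR-19a-3p were not tested. For KO against WT at 10 weeks the 2 (0.8%) became 1 with a filter of 50 RPM (1%) and 0 with only the 6 libraries (0%) or with the authors' normalised values (0%). At 30 weeks KO had 3 under size factors (2.5%) and 5 under edgeR (3.8%) and DESeq2 (4.9%), against 0 (0%). A537T had 5 under TMM (5.8%), edgeR (5.8%) and DESeq2 (6%) and 3 under size factors (4.1%), against 0 (0%). KO-TRAMP at 30 weeks had 2 with a pseudocount of 10 and 1 under DESeq2, against 0. The shares called in either direction were 8.5%, 14% and 5.5% in that order.

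Leaving out each library in turn, the TRAMP counts ran from 7 to 9 in WT at both ages, stayed at 3 in KO at 10 weeks and 8 at 30 weeks, and ran from 4 to 8 (8 without library 5) and 6 to 8 in A537T; both means stayed at 9. The age counts ran from 0 to 2 in KO, 0 to 1 in A537T (1 without library 26), 0 to 3 in KO-TRAMP and 0 to 2 in A537T-TRAMP, and the difference between ages from 3 to 6. The mutation counts ran from 0 to 5 for KO at 10 weeks, 0 to 2 for A537T at 30 weeks (2 without library 26) and 0 to 2 for KO-TRAMP at 30 weeks (2 without library 16). No share of all miRNAs is given for these fits, so that their counts are a description.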
